A study of Mus musculus with 8 samples.

Results

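The genes of the numbered kinesins (Kif) and of the Cep proteins of the centrosome were followed through 2 lists of m6A peaks from mouse embryonic stem cells (ESCs). Members were the protein-coding genes of GENCODE vM21 whose symbol begins with Kif or Cep and goes on with a digit. The rule found 75 genes, 39 Kif and 36 Cep, among 22028 protein-coding genes. Kif1bp, which encodes a binding partner of the motor Kif1b and no kinesin, and Cep295nl, named for its likeness to part of Cep295, came in through their symbols. A member was taken to carry a peak if they shared 1 or more exonic bases on 1 strand, which gave 188 of 18895 peaks in one list and 97 of 13001 in the other.

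The cells were E14 mouse ESCs, which per the study carried a doxycycline (Dox)-inducible transgene of Dux and a tdTomato reporter driven by the Mervl promoter. Dux is a transcription factor that moves ESCs into a state much like that of the 2-cell embryo, and tdTomato marks the cells that reach it. The DMSO cells carried both transgenes too and received the solvent DMSO for 24 h, whereas the Dox cells received Dox for 24 h. IP libraries (RNA pulled down with an antibody to m6A) and input libraries (RNA before the pull-down) had 2 replicates for each treatment, 8 libraries in all, but peaks were deposited as 1 list per treatment. No value therefore has a replicate error, no test between treatments was possible, and no p-value is given. The bracketed intervals are 95% intervals of counting error only, and peaks of 1 gene are not independent. Read depth and expression were not analysed here, so a gene without a peak is one in which no peak passed the threshold of the list, not one shown to lack m6A. Each peak has a score, read from its values as the −log10 p-value of the peak caller, which is never under 10 in either list and may or may not be adjusted for multiple tests.

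Kinesins are motor proteins that walk along microtubules or shorten their ends. Some carry vesicles and organelles, others build the spindle and divide the cell at cytokinesis, and others work in cilia. Cep proteins sit at the centrosome, where they help to duplicate the centriole, to hold the centriole pair together, to surround it with matrix and to grow a cilium from it. m6A is set on adenosines of mRNA while the transcript is made, in the sequence context DRACH (D is any base but C, R a purine, H any base but G), of which GGAC is the most used core, and it is known to be dense in long exons and around the stop codon. ESCs divide fast, so that many genes of the spindle and the centrosome are active in them. As a check of the labels, the pluripotency genes Nanog (4 DMSO and 3 Dox peaks), Sox2 (1 and 1) and Pou5f1 (3 and 3) had peaks in both lists. Of the genes known from 2C-like cells, Duxf3, a copy of the gene that the transgene encodes, had 0 DMSO and 4 Dox peaks, Usp17la had 0 and 5, Zscan4d had 1 and 4, and Zscan4c had 4 and 3, so that the last of them had no excess of Dox peaks.

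Kif20b and Cep295 were the members with the widest gap between the lists. Kif20b encodes a kinesin of the central spindle that acts in cytokinesis, and Cep295 encodes a protein that turns a new centriole into one able to organise a centrosome. Kif20b (ENSMUSG00000024795.11, GRCm38, chr19:34922361-34975745, plus strand) had 10 DMSO peaks and 0 Dox peaks. Cep295 (ENSMUSG00000046111.17, chr9:15316915-15357788, minus strand) had 15 DMSO peaks and 0 Dox peaks. In bulk RNA such as this, fewer cells of a type and less RNA per cell cannot be told apart. The pair was singled out with these counts known, so that the counts describe it and support nothing further.

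The following sequences show the best-scoring peaks with GGAC of the pair, 3 from each gene, all from the DMSO list and all in coding sequence. They are on the strand of the mRNA, 5′ to 3′, from GRCm38, with GGAC in capitals, and where a peak is spliced the intron is left out.
Kif20b, chr19:34951614-34952979, plus strand, spliced, whole peak: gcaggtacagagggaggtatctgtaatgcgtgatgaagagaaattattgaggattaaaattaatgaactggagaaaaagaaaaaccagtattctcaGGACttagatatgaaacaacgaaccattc
Kif20b, chr19:34957494-34959514, plus strand, spliced, 150 of 175 nt: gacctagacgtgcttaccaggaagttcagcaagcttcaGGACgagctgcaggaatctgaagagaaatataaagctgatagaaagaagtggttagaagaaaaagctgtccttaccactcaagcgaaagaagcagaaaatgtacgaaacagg
Kif20b, chr19:34950620-34950769, plus strand, 150 of 275 nt: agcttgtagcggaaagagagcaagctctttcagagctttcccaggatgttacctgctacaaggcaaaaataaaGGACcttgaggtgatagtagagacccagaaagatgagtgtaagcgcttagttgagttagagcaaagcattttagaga
Cep295, chr9:15332791-15332915, minus strand, whole peak: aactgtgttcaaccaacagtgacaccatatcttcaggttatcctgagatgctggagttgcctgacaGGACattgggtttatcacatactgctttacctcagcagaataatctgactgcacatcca
Cep295, chr9:15332316-15332440, minus strand, whole peak: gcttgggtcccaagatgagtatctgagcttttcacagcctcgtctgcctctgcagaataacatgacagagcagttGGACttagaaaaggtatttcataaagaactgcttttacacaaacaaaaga
Cep295, chr9:15334441-15334515, minus strand, whole peak: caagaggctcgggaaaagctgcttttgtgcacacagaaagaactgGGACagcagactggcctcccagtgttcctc

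Each of these peaks holds GGAC 1 time, and they were picked because they hold it. Among the DMSO peaks of all protein-coding genes that are 75 to 150 nt long, 50% held GGAC on their strand, and 40.3% of the member peaks of that length did. The other peaks of the pair often lacked it: 5 of 10 peaks held GGAC in Kif20b and 4 of 15 in Cep295. DRACH, which includes GGAC when the next base is not G, was in 7 of 10 Kif20b peaks and 13 of 15 Cep295 peaks. A match says only that the letters are there.

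All 25 peaks of the pair lay in coding sequence, away from the stop codon. In Kif20b, 5 of 10 peaks were in exon 19, the longest exon of the transcript with 1234 nt, and the rest lay in exons 20 to 25, which span 61 to 156 nt where a peak has its middle base. The Kif20b peaks began 2815 nt before the stop codon and ended 1077 nt before it, measured from their middle bases. The 10 peaks covered 1050 nt, or 15.1% of the exonic length of 6957 nt, which joins the exons of all transcripts of the gene. The transcript used for positions has 5564 nt. In Cep295, 9 of 15 peaks were in exon 15, which is 3370 nt long, another 2 lay in exon 24, and exons 3, 4, 5 and 10 held 1 each. The Cep295 peak nearest to the stop codon had its middle base 509 nt before it. The 15 peaks covered 1125 nt, or 6.93% of the exonic length of 16238 nt. The transcript used for positions has only 7605 nt, so that the percentages of the 2 genes are not alike in their base.

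**Figure D1:**
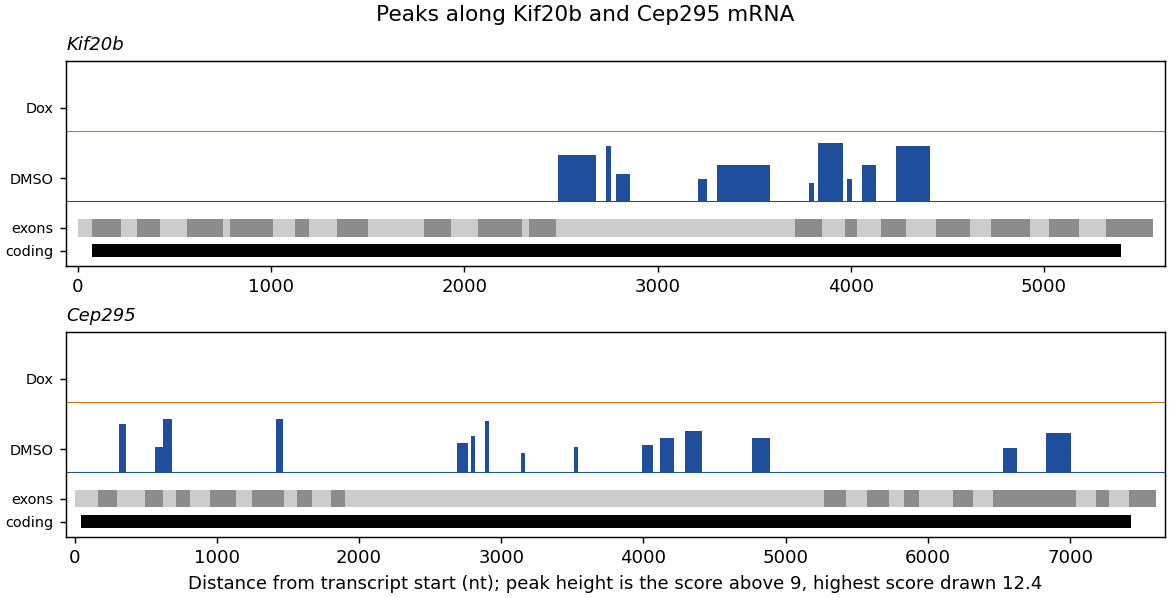
Peaks along the mRNA of Kif20b and Cep295, with the distance from the transcript start (nt) on the horizontal axis, grey bars for exons, a black bar for coding sequence, and blue boxes for DMSO peaks whose height is the score above 9. The 10 blue boxes of Kif20b crowd into the long exon 19 and the short exons after it, 9 of the 15 boxes of Cep295 stand in exon 15, and the Dox line is empty for both.

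Most peaks of the pair scored below the middle of the DMSO list, with median percentiles of 31.5 in Kif20b and 28.1 in Cep295. The median over all member DMSO peaks was 34.1, so that low scores were not particular to the pair. Scores ran from 10.1 to 12.4 in Kif20b (median 11.1) and from 10.1 to 12.1 in Cep295 (median 11), which put the best Kif20b peak at percentile 67.8 of the DMSO list and the best Cep295 peak at percentile 62.0. Lengths ran from 25 to 275 nt in Kif20b and from 25 to 175 nt in Cep295, with a median of 75 nt in each. Of the DMSO peaks of all protein-coding genes whose scores fell in the Kif20b range, 47.0% (46.2 to 47.9) had a Dox peak over them. In the Cep295 range the share was 44.5% (43.6 to 45.4). The shares of 0 of 10 in Kif20b and 0 of 15 in Cep295 were known when the pair was chosen. Peaks of the same gene are also not independent, so setting these shares side by side tests nothing. Of the 208 protein-coding genes with 10 or more DMSO peaks, 3 had no Dox peak, and these were Kif20b, Cep295 and Ttn, the gene of the muscle protein titin. That count likewise only describes the pair. Raising the score threshold of both lists to 12 left 3 DMSO peaks in Kif20b and 2 in Cep295.

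A peak in at least 1 list was found for 48 of the 75 members. In the DMSO list, 47 members carried a peak, which is 62.7%, where 27.5% of all protein-coding genes did. In the Dox list, 33 members carried one, which is 44.0%, where 22.1% of all protein-coding genes did. The shares were alike in the families: 24 of 39 Kif and 23 of 36 Cep genes had a DMSO peak, and 18 Kif and 15 Cep genes had a Dox peak. Members are long genes, with a median exonic length of 6476 nt against 3488 nt over all protein-coding genes, and longer genes carried peaks more often. Between 4 and 6 kb of exonic sequence, 14 of 22 members (63.6%) had a DMSO peak, against 35.2% of all genes of that length. Between 8 and 12 kb the shares were 73.3% of 15 members and 46.2% of all genes. The Dox shares stood further apart between 4 and 6 kb (63.6% and 28%), differed little from 6 to 8 kb (33.3% and 32.0%), and were lower in the members at 12 kb and above (33.3% of 9 members and 38.4% of all genes). Whether expression differs between members and other genes of the same length was not analysed here.

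**Figure D2:**
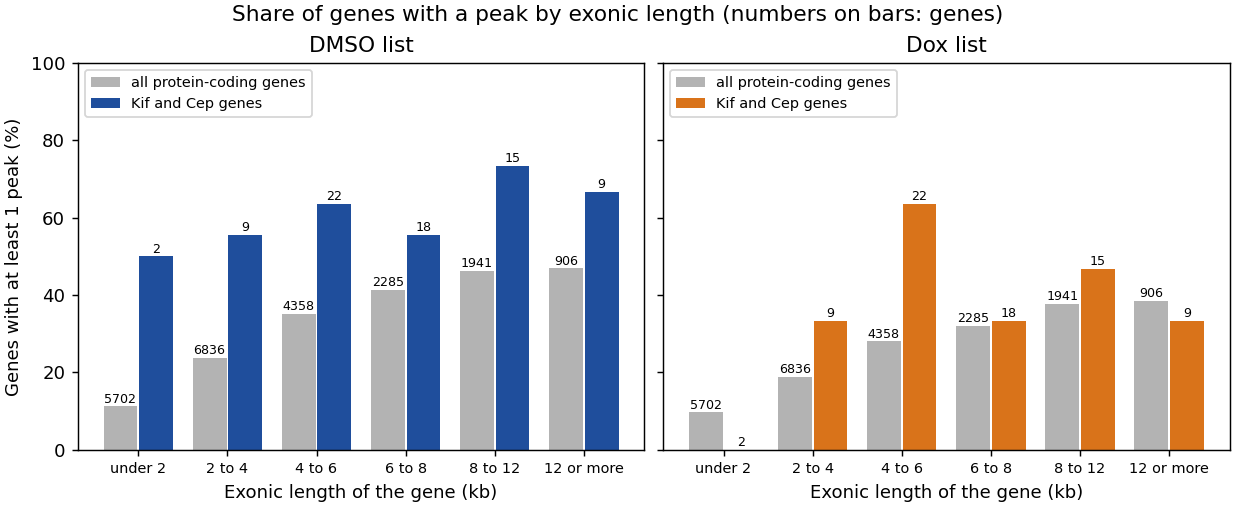
Share of genes with at least 1 peak (%, vertical axis) by exonic length of the gene (kb), for all protein-coding genes (grey) and the Kif and Cep genes (blue, DMSO list; orange, Dox list), with the number of genes on each bar. In the DMSO list the members stand above all genes in every length class, whereas in the Dox list they stand above them between 2 and 12 kb (by little from 6 to 8 kb) and below them in the shortest and the longest class.

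Among the 48 members with a peak, 15 had DMSO peaks and no Dox peak (31.2%), where 21.5% of all protein-coding genes with a peak did. These were 6 Kif and 9 Cep genes. Apart from Kif20b and Cep295, those with at least 2 DMSO peaks were Cep170 (5 DMSO peaks), Cep97 (4), Cep128 and Cep162 (3 each), and Cep19, Cep78, Cep152, Kif2a and Kif3a (2 each). The reverse was found in 1 of the 48 members (2.08%), beside 2.40% of all protein-coding genes with a peak. Genes with few DMSO peaks more often lacked a Dox peak throughout the list. With 4 to 5 DMSO peaks, 60 of 924 protein-coding genes (6.49%) had no Dox peak, and 2 of the 10 members with as many peaks, Cep170 and Cep97, had none.

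**Figure D3:**
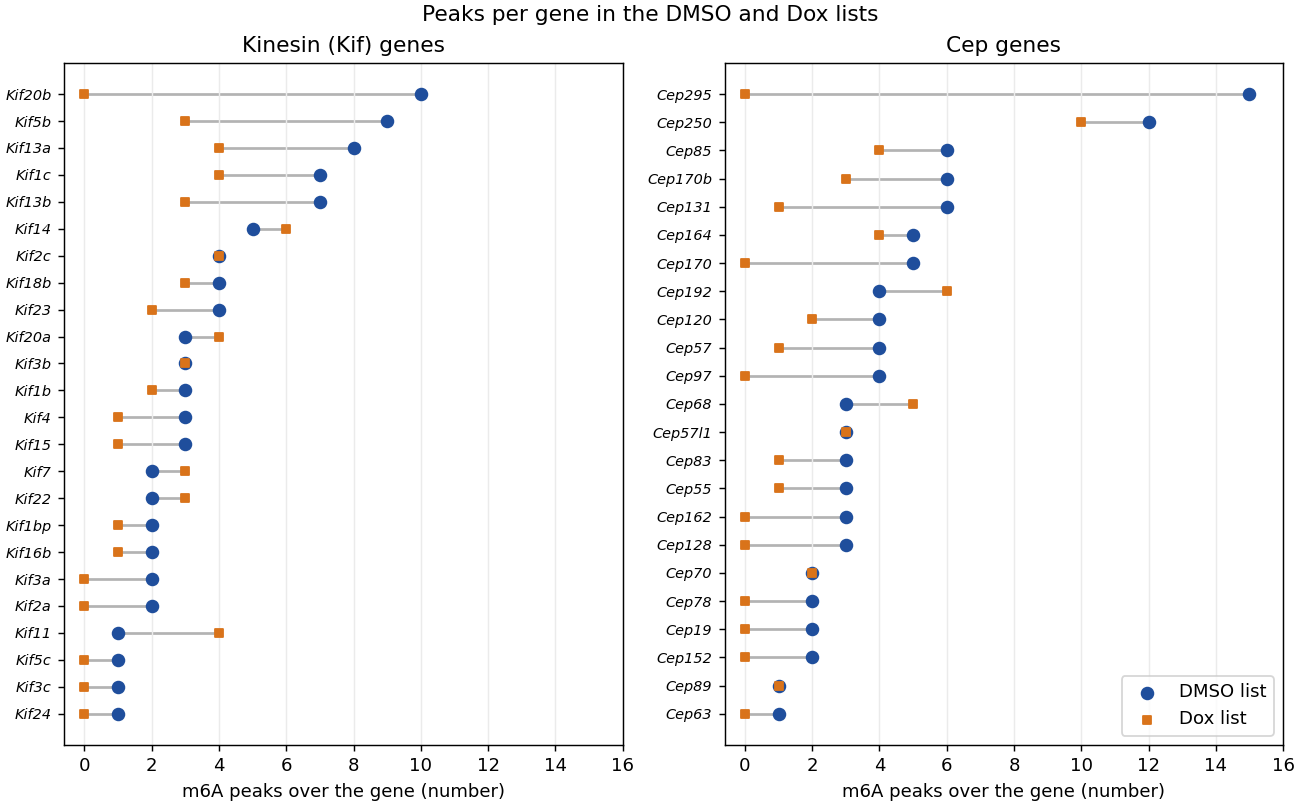
Number of m6A peaks (horizontal axis) over each Kif gene (left) and Cep gene (right) that had a DMSO peak, with blue circles for the DMSO list, orange squares for the Dox list, and a grey line between the counts of 1 gene. Cep295 (15 and 0) and Kif20b (10 and 0) have the longest lines, Cep250 has 12 and 10, and Kif11 has 1 and 4.

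Summed over the members, 188 DMSO peaks stood against 97 Dox peaks, a ratio of 1.94 (1.52 to 2.47). The ratio over all protein-coding genes was 1.45 (1.42 to 1.49). The Kif genes had 89 and 52 peaks (ratio 1.71, 1.22 to 2.41), and the Cep genes had 99 and 45 (ratio 2.2, 1.55 to 3.12). Without Kif20b and Cep295 the members had 163 and 97 peaks, and the ratio of 1.68 (1.31 to 2.16) had an interval that included the ratio of all genes. With the DMSO list trimmed to its 13001 top-scoring peaks, the size of the Dox list, the members kept 104 DMSO peaks and the ratio was 1.07 (0.814 to 1.41), with 1.0 over all protein-coding genes. At a score of at least 12 in both lists the ratio was 3.64 (2.03 to 6.53) over members and 1.63 over all genes, on 51 DMSO and 14 Dox peaks. The excess in peak number over members thus depended on where the lists were ended. Counted in exonic bases, the member ratio with lists of equal size was 1.79, beside 2.24 with the full lists. Ratios of bases have no counting interval of their own. The base ratio of all protein-coding genes at equal list sizes is not given here.

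The same settings sorted the 15 genes with DMSO peaks alone. With lists of equal size, 9 of the 15 still had a DMSO peak and no Dox peak, and they were Kif20b, Cep295, Kif2a, Cep19, Cep63, Cep78, Cep97, Cep152 and Cep170. Kif20b then had 5 DMSO peaks and Cep295 had 7. At a score of at least 12, 3 of the 15 were left in that class, Kif20b, Cep295 and Cep63, while 15 other members entered it because their Dox peaks had dropped out.

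More DMSO than Dox peaks were found in 35 of the 48 members with a peak (72.9%), beside 59.1% of all protein-coding genes with a peak. More Dox than DMSO peaks were found in 8 (16.7%), beside 12.7%. The remaining 5, Cep57l1, Cep70, Cep89, Kif2c and Kif3b, had equal numbers. Counting exonic bases instead of peaks, 45 of 48 members (93.8%) had more bases in DMSO peaks, beside 86.7% of all protein-coding genes with a peak, and 3 (6.25%) had more in Dox peaks, beside 8.55%. Member exons held 27550 bases of DMSO peaks and 12275 bases of Dox peaks, a ratio of 2.24, and the ratio over all protein-coding genes was 1.47.

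Kinesins of the spindle and of cytokinesis had peaks in most cases. Of these 13 genes, 11 had DMSO peaks and 9 had Dox peaks, with 41 and 28 peaks (ratio 1.46, 0.91 to 2.36), and Kif2b and Kif18a had none. Kif20b brought 10 of the 41 DMSO peaks and none of the Dox peaks. Kif14, which acts at the midbody, had 5 DMSO peaks over 1575 nt and 6 Dox peaks over 1125 nt. One peak of each list covered most of its first coding exon, with lengths of 900 nt (score 12.4) and 825 nt (score 13). Kif11, the motor that pushes the spindle poles apart, had 1 DMSO peak of 525 nt at its stop codon and 4 Dox peaks of 250 nt in all in the same stretch. For both genes, then, the larger number of Dox peaks went with fewer covered bases.

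Kif2c, a kinesin that takes microtubule ends apart, had 4 peaks in each list and the best DMSO score of any member, 18.5, on a spliced peak of 100 nt at chr4:117174979-117177990. Its best Dox score was 11.7. Kif18b, which shortens astral microtubules, had 4 DMSO peaks and 3 Dox peaks, with best scores of 12.3 and 13.5. Kif2a, of the same family as Kif2c, had 2 DMSO peaks (scores 10.8 and 11.5) and no Dox peak. So relatives of 1 family differed, and Kif20a, the closest relative of Kif20b among the members, had 3 DMSO and 4 Dox peaks where Kif20b had 10 and 0.

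Kinesins of cargo transport had a higher ratio, with an interval that overlapped that of the spindle group. Of 15 genes, 10 had DMSO peaks and 7 had Dox peaks, with 43 and 20 peaks (ratio 2.15, 1.27 to 3.63). More DMSO than Dox peaks were found in 9 of them and more Dox peaks in 0. Kif5b, the ubiquitous conventional kinesin heavy chain, had 9 DMSO peaks over 1100 nt and 3 Dox peaks over 250 nt, the largest excess of DMSO peaks among members with peaks in both lists. Its best peaks, spliced and in coding sequence, overlapped and scored 14.5 (DMSO) and 13.7 (Dox).

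The vesicle motors of the kinesin-3 family followed. Kif13a had 8 DMSO peaks over 1100 nt and 4 Dox peaks over 650 nt, and Kif13b had 7 over 750 nt and 3 over 625 nt. Kif1c had 7 over 850 nt and 4 over 575 nt. The best DMSO peak of Kif1c (125 nt, score 15.0, in the 3′UTR) was not overlapped by a Dox peak, but its sequence has a near-identical second locus in the genome, so that its reads could have been placed in more than 1 way. Kif3a and Kif3b, which form the motor of transport into cilia, differed: Kif3a had 2 DMSO peaks and no Dox peak, and Kif3b had 3 and 3. The kinesins with roles in cilia and signalling had 3 DMSO and 3 Dox peaks. Of these 6 genes, 2 carried DMSO peaks and 1 carried Dox peaks. Over all protein-coding genes the shares were 27.5% and 22.1%, and 6 genes are too few to set the group apart from them. Kif7, a regulator of Hedgehog signalling, had 2 DMSO and 3 Dox peaks. Kif24 had 1 DMSO peak that also has a near-identical locus, and the other 4 genes had none.

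Among the Cep genes, those of centriole assembly had 43 DMSO and 16 Dox peaks (ratio 2.69, 1.53 to 4.73). Of these 12 genes, 9 had DMSO peaks and 5 had Dox peaks. Cep295 brought 15 of the 43 DMSO peaks. Cep152, a scaffold that brings the kinase Plk4 to the centriole, had 2 DMSO peaks side by side in exon 21 (scores 11.3 and 11.4) and no Dox peak. Its partner in that task, Cep192, had 4 DMSO peaks over 1650 nt and 6 Dox peaks over 750 nt. Cep63, a further partner of Cep152, had 1 DMSO peak of 50 nt with a score of 17.1, the third highest of the member peaks in that list, and no Dox peak. That peak lies in an exon that is not in the chosen Cep63 transcript.

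Cep97, which caps the growing centriole, had 4 DMSO peaks over 350 nt and no Dox peak. Cep85 had 6 DMSO peaks over 1275 nt and 4 Dox peaks over 800 nt. Cep120, needed for centriole elongation, had 4 and 2 peaks and the best Dox score of the members, 18, on a peak of 250 nt close before the stop codon that had the same bounds in both lists and scored 15.3 in the DMSO list. Cep57l1 had 3 peaks in each list. The 5 genes of this group with Dox peaks had best DMSO scores of 13.2 to 15.3. Of the 4 without, Cep97, Cep152 and Cep295 had best DMSO scores of 11.2 to 12.1, below that range, and Cep63 was above it.

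The 6 genes of the centriole appendages, which anchor the centriole to the membrane or hold microtubules, all had DMSO peaks and 3 had Dox peaks, with 19 and 6 peaks (ratio 3.17, 1.3 to 7.7). Cep164, of the distal appendages, had 5 and 4 peaks over 800 and 450 nt. Cep89 had 1 peak in each list, of score 15.4 and 10.6. Cep170, of the subdistal appendages, had 5 short DMSO peaks of 25 to 75 nt, 4 of them in its exon of 1818 nt, with scores of 10.1 to 11.5, and no Dox peak. Its paralog Cep170b had 6 DMSO peaks over 1150 nt and 3 Dox peaks over 350 nt. Cep128 (3 DMSO peaks) and Cep19 (2 DMSO peaks, both in the 3′UTR) had no Dox peak.

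In the cilia group, 3 of 6 genes had DMSO peaks, 11 in all, and the Dox total of this group is not reported here. Cep131, a protein of centriolar satellites, brought 6 of the 11 DMSO peaks, over 350 nt, and had 1 Dox peak of 25 nt. Cep162 had 3 DMSO peaks, all within exon 23 of 644 nt, and Cep78 had 2, and neither had a Dox peak.

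The linker, matrix and midbody genes were the Cep group with nearly equal counts, 18 DMSO and 16 Dox peaks (ratio 1.12, 0.58 to 2.18), from Cep250, Cep68 and Cep55. Cep72 and Cep350 had none. Cep250, the fibre protein that ties the centriole pair together, had 12 DMSO peaks over 2850 nt and 10 Dox peaks over 1625 nt. Of its 12 DMSO peaks 9 met a Dox peak, and all 10 Dox peaks met a DMSO peak. A Dox peak of 475 nt in exon 28, which is 2559 nt long, had a score of 13.9. Cep68, another linker protein, had 3 DMSO peaks over 1175 nt and 5 Dox peaks over 550 nt. Cep55, which brings the abscission machinery to the midbody, had 3 DMSO peaks and 1 Dox peak, and its best DMSO score was 17.4. Cep250 and Cep295 are thus both long genes with many peaks in long internal exons, yet 1 of them had its peaks in both lists.

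**Figure D4:**
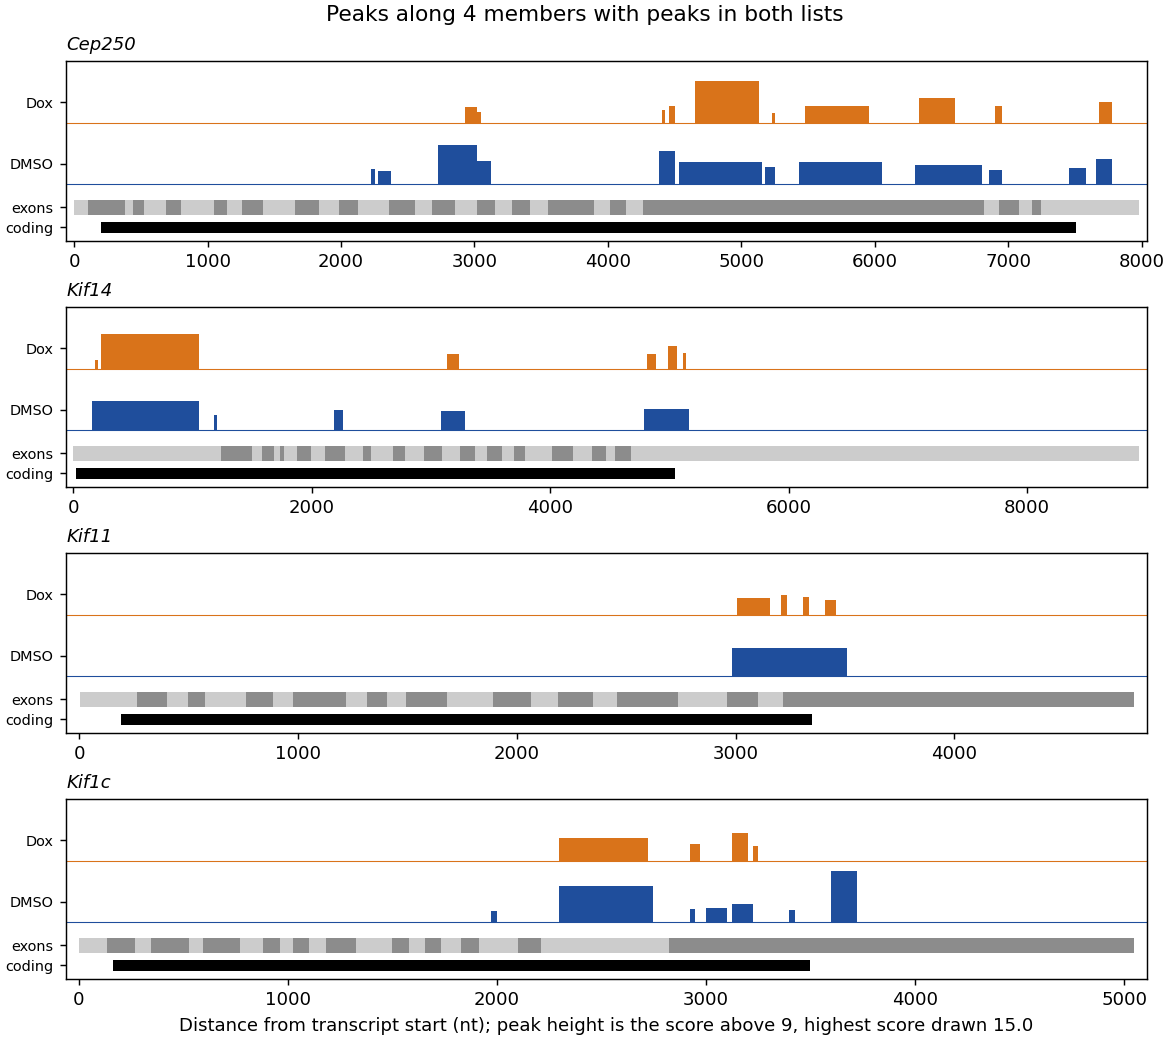
Peaks along the mRNA of Cep250, Kif14, Kif11 and Kif1c, drawn against the distance from the transcript start (nt), with grey bars for exons, a black bar for coding sequence, and boxes for DMSO (blue) and Dox (orange) peaks whose height is the score above 9. Dox boxes mostly stand over DMSO boxes that are wider, apart from 1 Dox box of 25 nt in Kif1c with no DMSO box under it, and the single DMSO peak of Kif11 (525 nt) lies under 4 Dox peaks.

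Sequences are also given from 4 other members with high-scoring peaks, which were picked because they hold GGAC. They come from the DMSO peaks of Cep55 (score 17.4), Cep85 (14.3) and Kif1bp (14.0) and from the Dox peak of Cep250 (13.9), with GGAC in capitals. The peak of Cep85 touches a UTR and is given by a short window. Of the member DMSO peaks with a score of 15.0 or more, those of Kif2c, Cep63, Cep89 and Kif1c held no GGAC. Those of Cep55 and Cep120 held it.
Cep55, chr19:38057967-38060213, plus strand, spliced, 150 of 350 nt: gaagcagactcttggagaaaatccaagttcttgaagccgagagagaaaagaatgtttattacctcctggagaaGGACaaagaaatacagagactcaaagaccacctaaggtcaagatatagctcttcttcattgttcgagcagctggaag
Cep85, chr4:134131293-134131321, minus strand, 29 of 250 nt: cagatatgcccaGGACatgggagaaaact
Kif1bp, chr10:62559343-62559492, minus strand, 150 of 275 nt: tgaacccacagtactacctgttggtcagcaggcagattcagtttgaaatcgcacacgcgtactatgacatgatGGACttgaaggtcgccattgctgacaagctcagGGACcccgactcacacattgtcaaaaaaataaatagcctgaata
Cep250, chr2:155990780-155990929, plus strand, 150 of 475 nt: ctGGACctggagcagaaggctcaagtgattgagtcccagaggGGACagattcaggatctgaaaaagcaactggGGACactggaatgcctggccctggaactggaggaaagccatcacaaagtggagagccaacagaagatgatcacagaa

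Where a DMSO peak and a Dox peak met, the DMSO peak was usually the longer. In 61 cases over members, 1 DMSO peak overlapped 1 Dox peak and no other, and the DMSO peak was longer in 50 of them (82.0%), shorter in 4 and equal in 7. The median lengths were 200 and 100 nt. Over all protein-coding genes the DMSO peak was longer in 68.9% of 8785 such cases, with medians of 200 and 150 nt. A further 12 member DMSO peaks met more than 1 Dox peak. The widest of these was the 900 nt peak of Kif14, which met 2 Dox peaks of 850 nt in all. In Cep192 a DMSO peak of 800 nt met 4 Dox peaks of 375 nt in all, and in Cep68 a peak of 600 nt met 3 Dox peaks of 450 nt in all. Of the 8 members with more Dox than DMSO peaks, 6 had more bases in DMSO peaks: Cep192, Cep68, Kif11, Kif14, Kif20a and Kif22. A count of peaks thus ran opposite to the covered length in these genes, and how the peak caller joins neighbouring windows into 1 peak was not tested.

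Of the 188 member DMSO peaks, 75 (39.9%, 33.2 to 47.0) met a Dox peak, and over all protein-coding genes 57.1% did. Of the 97 member Dox peaks, 92 (94.8%) met a DMSO peak, and over all genes 92.8% did. Without Kif20b and Cep295, which have no Dox peak, the member DMSO share was 46.0% (38.5 to 53.7). The median member DMSO peak was at percentile 34.1 of its list, and the part of scores in the lower share was not tested. Within each of 6 score bands, with the pair kept in, the member share was below that of all genes. Its interval included the share of all genes each time. From 10.5 to 11, 20.5% of 44 member peaks (11.2 to 34.5) were overlapped, against 29.8%. From 11 to 11.5 the share was 41.7% of 36 (27.1 to 57.8) against 55.2%. At a score of 13 or more the share was 81.8% of 22 (61.5 to 92.7) against 82.7%, a gap of under 1 percentage point.

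**Figure D5:**
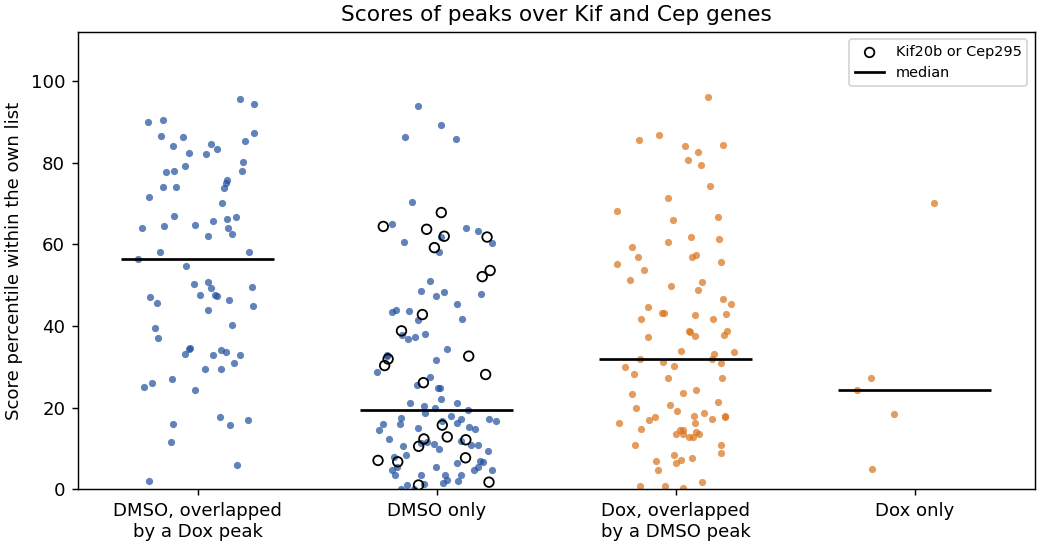
Score percentile within its own list (vertical axis) of each peak over the Kif and Cep genes, by list and by overlap with the other list, with blue points for DMSO, orange points for Dox, black lines for medians, and black rings for peaks of Kif20b and Cep295. DMSO peaks overlapped by a Dox peak have a median percentile of 56.3 and those without one 19.5, and the rings lie at percentile 67.8 or below.

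Member peaks lay in coding sequence more often than the peaks of all genes. By their middle base, 91.5% (86.5 to 94.8) of member DMSO peaks and 94.6% (88.0 to 97.7) of member Dox peaks were coding, against 72.2% and 71.4% over all protein-coding genes. In the 3′UTR were 7.34% and 5.38%, against 24.4% and 24.8%. Within 200 nt of the stop codon were 11.9% (7.89 to 17.5) and 14.0% (8.35 to 22.5), against 22.9% and 25.1%. These shares were close to each other in both lists, so that the place of member peaks differed from that of all peaks, and the lists differed little. How much of a transcript is coding or 3′UTR, and how many exons it has, was not compared between members and all genes. The part of this makeup in the shares here and in internal exons was not tested. The 21 DMSO peaks near a stop codon came from 19 genes and the 13 Dox peaks from 9, among them Kif11, Kif14, Kif20a, Kif2c, Cep85, Cep120 and Cep164 in both lists.

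Internal exons held 78.0% of member DMSO peaks, against 50.9% over all genes, and 77.4% of member Dox peaks, against 47.0%. Long exons did not set the members apart: 51.2% of their coding DMSO peaks were in exons of 400 nt or more, the same as the 51.2% of all genes. In the Dox list the shares were 54.5% and 60.0%. Spliced peaks, which join at least 2 exon blocks, made up 32.4% (26.2 to 39.4) of member DMSO peaks and 17.5% (11.2 to 26.3) of member Dox peaks. Over all genes the shares were 26.6% and 21.8%, within these intervals.

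GGAC was in 40.4% (33.7 to 47.6) of member DMSO peaks and 42.3% (32.9 to 52.2) of member Dox peaks, against 54.1% and 55.9% over all protein-coding genes. Member peaks were shorter, with medians of 100 and 75 nt against 125 nt in each list, and a shorter peak has less room for a motif. Among peaks of 75 to 150 nt, GGAC was in 40.3% (29 to 52.7) of 62 member DMSO peaks against 50%, and in 53.3% (36.1 to 69.8) of 30 member Dox peaks against 51.9%. DRACH was in 81.9% and 81.4% of member peaks, against 85.0% and 85.4%. DMSO peaks that a Dox peak overlapped held GGAC in 61.3% of 75 cases and the others in 26.5% of 113, and over all genes these shares were 69.3% and 33.9%. The overlapped peaks were also longer, with a median of 225 nt against 50 nt over members.

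Related genes outside the rule gave ratios in the same range. The other kinesin heavy chains, light chains and partners had 21 DMSO and 8 Dox peaks over 10 genes (ratio 2.62, 1.19 to 5.8), of which Cenpe, the kinesin of the kinetochore, had 8 and 1. A list of 36 other centrosome and centriole genes had 111 and 60 peaks (ratio 1.85, 1.35 to 2.53), and in it Pcnt, the scaffold of the centrosome matrix, had 17 and 16. A list of 20 other spindle and kinetochore genes had 86 and 51 peaks (ratio 1.69, 1.19 to 2.38), and in it Cenpf, of the outer kinetochore, had 20 and 6. The intervals of these lists include the member ratio of 1.94 and also the ratio of 1.45 over all protein-coding genes. No test set them apart from either.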

How the data were processed

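The labels gave 8 MeRIP-seq libraries of E14 mouse ESCs, 2 IP and 2 input libraries for DMSO and as many for Dox, with replicates whose source is not stated beyond their numbers. The authors fragmented poly(A) RNA, enriched it with an anti-m6A antibody, filtered reads with fastp 0.19.4, aligned them to mm10 with hisat2 2.2.1 and called peaks with exomePeak2, whose version, settings and handling of replicates are not given in the sources used here. ChIPseeker is named in the submitters' processing notes. The deposited lists hold 1 set of spliced peaks per treatment with a value for each peak that was read as its −log10 p-value, because none is under 10 and some are infinite. Whether it is adjusted is not stated, and it is used here as a score. Which list belongs to which treatment was read from the list's name. Sequencing depth was not analysed here, and deeper libraries give more peaks at a fixed threshold.

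Peaks were laid on GENCODE vM21. No member peak shared exons with a second protein-coding gene. Position used the transcript with the longest coding sequence and the middle base of the peak, which for 15 of 285 member peaks was not on that transcript. The stop codon counted as coding, and its window was 200 nt. An overlap of at least 1 base on the same strand counted. Shares have Wilson 95% intervals, and ratios of peak numbers have intervals derived from them. Sequences came from the GRCm38 RefSeq genome. Near-identical loci (at least 98% identity over 90% of a peak) were searched with blastn 2.17.0. Work was done in Python 3.11.15 with numpy 2.4.6, pandas 2.3.3, pysam 0.24.0 and matplotlib 3.10.9, and the placing steps were tested on simulated peaks. Symbols such as Kifc1 or Kifap3, with no digit after Kif, are outside the rule.

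Named were Kif20b and Cep295; the 6 Kif and 6 Cep genes with most peaks; members with at least 2 peaks in 1 list and 0 in the other; members with Dox peaks alone (not reported here by name); the 3 largest excesses in each direction among genes with peaks in both lists; and the genes of the 5 best-scoring member peaks of each list. A few others are named to complete small counts or pairs of relatives and were chosen after their values were seen. For sequences, genes were ranked by their peaks that hold GGAC, and none on chromosome 18 was printed. Members, role groups and lists were chosen with earlier results of these data known. Alternatives covered the score threshold (11 and 12), equal list sizes, the overlap needed, strand, shared genes, the pair left out, the motif, the transcript and the stop codon window.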

Additional observations from a re-analysis of the deposited data

How the results depend on the processing

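Of 68 values computed under alternative settings for 14 results, 49 stayed within the counting interval (or within 1.5 times a count of genes), 19 moved and 0 reversed. Counts and shares have no direction of their own, so that only the ratios could have reversed. At a score of at least 12, 29 members carried DMSO peaks and 11 carried Dox peaks, the ratio of peaks was 3.64 and that of bases 3.41, and the overlapped share was 11.8% of DMSO and 42.9% of Dox peaks. The number of members with Dox peaks alone was 0 at scores of at least 11 and of at least 12, and 2 with lists of equal size. Lists of equal size also gave 9 members with DMSO peaks alone, a ratio of peaks of 1.07, and overlapped shares of 58.7% and 81.4%. The ratio of bases at that setting was 1.79. It is among the values that stayed, by an interval scaled from that of the peak numbers, which is no counting error of bases. When at least 50% of a peak had to be overlapped, 25% of DMSO peaks were. A window of 400 nt at the stop codon held 20.9% of DMSO and 25.8% of Dox peaks. DRACH was in 81.9% and 81.4%, and GGAC was in 53.3% of Dox peaks of 75 to 150 nt. Over all protein-coding genes 51.9% of such Dox peaks held GGAC, so that at this length the member Dox share was not the lower one. A wider window, a looser motif and a stricter overlap move these shares by construction. For the moved ratios the cause was not tested. No paired analysis was possible because peaks were deposited as a list per treatment and never per replicate, and for that reason no replicate could be left out. Depth, expression and the settings of the peak caller limit every count of peaks here, and their part was not tested.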
